A study of Mus musculus with 8 samples.

Results

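The phagocyte NADPH oxidase was described here through 6 genes of its subunits and GTPases, Cybb, Cyba, Ncf1, Ncf4, Rac1 and Rac2, in bulk RNA-seq of mouse tumor-associated macrophages (TAMs). They were taken by name from the 26939 genes of the deposited count tables, with earlier results of these data known, and further subunits of the complex were not analysed here. The sort kept live cells positive for CD45, CD11b and F4/80 and negative for Gr-1 at day 21 from tumors of EO771, a breast cancer line grown in the mammary fat pad of adult female mice. WT and Unc93b1 3d/3d mice each gave a control group and an αMARCO group, 4 groups of 2 libraries. WT mice were C57BL/6J, and Unc93b1 3d/3d mice carry a germline point mutation of the chaperone UNC93B1, so that endosomal TLRs do not signal in any of their cells, macrophages or not. The αMARCO mice received 100 µg of the rat IgG1 antibody ED31 against the scavenger receptor MARCO intravenously on days 3, 6, 9 and 12. The control mice are untreated in the labels, received PBS by their library names and an isotype antibody by the stated protocol, so what the controls were given was not settled. Each control library pools the TAMs of 3 mice, the mice behind each αMARCO library are not given in the sources used here, and p-values here measure only the spread between these libraries.

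The phagocyte oxidase moves electrons from cytosolic NADPH across the membrane of the phagosome or cell surface and makes superoxide from oxygen. Its membrane core, flavocytochrome b558, pairs the catalytic subunit gp91phox with p22phox. At rest the other subunits stay in the cytosol, and after a stimulus phosphorylated p47phox carries them to the core while a Rac GTPase in its GTP-bound form joins separately. Loss of any of several of these subunits causes chronic granulomatous disease, in which phagocytes ingest microbes but kill them poorly.

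Among the oxidase genes, the call that held under every alternative was that of Rac2, the Rac GTPase of blood cells. Rac2 was 2.12-fold higher in WT control than in Unc93b1 3d/3d control TAMs. The other 5 genes differed between the control groups by at most 0.30 on the log2 scale, and none of those differences was called. αMARCO in WT mice went with less Rac1, the widely expressed GTPase, which fell by 0.51 on the log2 scale. In Unc93b1 3d/3d mice no oxidase gene was called after αMARCO, where the 2 αMARCO libraries differed from each other more than any other replicate pair. Called means an edgeR adjusted p of at most 0.05 and a log2 fold change of at least 0.5 in size, the threshold of the study's methods.

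Each level is a CPM value, a read count made comparable between libraries of unequal size, here with TMM factors over all 8. The 8 libraries held 15182618 to 26411936 counts, and the 6 genes had between 2093 and 16518 counts in each. The 2 Unc93b1 3d/3d αMARCO libraries stood apart from each other: the SD of their log2 difference over genes was 0.999, against 0.426 to 0.568 in the other 3 groups. That difference had a Spearman correlation across genes of 0.287 with gene length, so replicate 2 was lower in long genes, while the other groups lay between -0.072 and 0.074. The 5 macrophage markers Adgre1, Csf1r, Cd68, Itgam and C1qa were high in every library, with summed levels of 4086 to 5715 CPM. Single markers did differ. After αMARCO in WT, C1qa (log2 -0.73) and Adgre1 (-0.54) were called lower and the other 3 were not called. Between the control groups Itgam (0.63) was called higher in WT and the other 4 were not called. Neutrophils hold large amounts of this oxidase. Their 12 markers summed to 322 to 343 CPM in WT control, 233 to 270.3 in Unc93b1 3d/3d control, 378 to 381 in WT αMARCO and 218 to 267 in Unc93b1 3d/3d αMARCO. Csf3r, which other myeloid cells also express, made up most of each sum, and Mpo, Elane, Camp and Ngp had at most 6 counts in any library. S100a8 reached 227 counts and S100a9 463, and S100a9 ran from 0.888 to 24.4 CPM. Ltf (log2 2.92) was called higher in WT control than in Unc93b1 3d/3d control. After αMARCO in WT, Ltf (-4.09), Cxcr2 (-3.27) and S100a8 (-2.32) were called lower. Those were the directions of Rac2, but Ltf and Cxcr2 averaged only 0.281 and 0.145 CPM in WT αMARCO. Csf3r went the other way there, higher after αMARCO by 0.40 (edgeR adjusted p = 0.00438), below the fold threshold. The part of neutrophils in the results was not tested. Marco had 1 to 17 counts per library and was not tested. Unc93b1 itself was higher in the WT controls, at 848 and 966 CPM, than in the Unc93b1 3d/3d controls, at 539.8 and 661 CPM, and a point mutation need not change the transcript, so this does not check the labels.

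The genes map to GRCm38 and the tables place them where GENCODE M21 does. Cybb (ENSMUSG00000015340, gp91phox) spans chrX:9435252-9487771 on the minus strand with 13 exons in its principal transcript. Cyba (ENSMUSG00000006519, p22phox) spans chr8:122424776-122432930 on the minus strand with 6 exons. Ncf1 (ENSMUSG00000015950, p47phox) lies at chr5:134220053-134229625 on the minus strand with 11 exons, and Rac1 (ENSMUSG00000001847) on the same chromosome and strand at 143503634 to 143528036 with 6 exons. Both Ncf4 (ENSMUSG00000071715, p40phox, chr15:78244801-78262580, plus strand, 10 exons) and Rac2 (ENSMUSG00000033220, chr15:78559167-78572783, minus strand, 7 exons) lie on chromosome 15.

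Per kilobase of the tables' gene length, all 6 genes were among the more abundant transcripts of these cells. Mean Cyba over the 8 libraries was 616 CPM per kb, above 99.7% of the 16573 genes compared. Ncf4 followed at 124, Rac1 at 89.0, Rac2 at 80.2, Cybb at 72.1 and Ncf1 at 42.8 CPM per kb, above 92.4% of genes. Cyba was the highest and Ncf1 the lowest of the 6 in every library. The gene lengths used run from 1039 bases for Cyba to 5808 for Cybb and count every annotated exon, so a gene whose long exons are little used gets a low per-kb level. The ratio of Cyba to Cybb per kb was 6.55 to 8.51 in 7 libraries and 20.2 in Unc93b1 3d/3d αMARCO replicate 2.

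The middle of this order changed between groups. In WT control TAMs Rac2 came second at 115 ± 16.6 CPM per kb (SD, n = 2), and its libraries overlapped those of Rac1 (107 ± 4.44), and those of Ncf4 (97.1 ± 7.28) lay just below them. In Unc93b1 3d/3d control TAMs Rac2 came next to last at 53.8 ± 3.14 CPM per kb, below Cybb (67.1 ± 7.22), Rac1 (86.1 ± 7.31) and Ncf4 (109.6 ± 3.35) with no overlap of libraries. In WT αMARCO TAMs Ncf4 was second at 119 ± 2.68, and Rac2 (83.7 ± 5.27), Rac1 (74.6 ± 1.43) and Cybb (73.7 ± 5.95) followed, with Rac1 and Cybb overlapping. In Unc93b1 3d/3d αMARCO TAMs the spread was too wide to order Rac1 (88.3 ± 28.7), Rac2 (68.4 ± 19.0) and Cybb (64.4 ± 15.5).

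**Figure D1:**
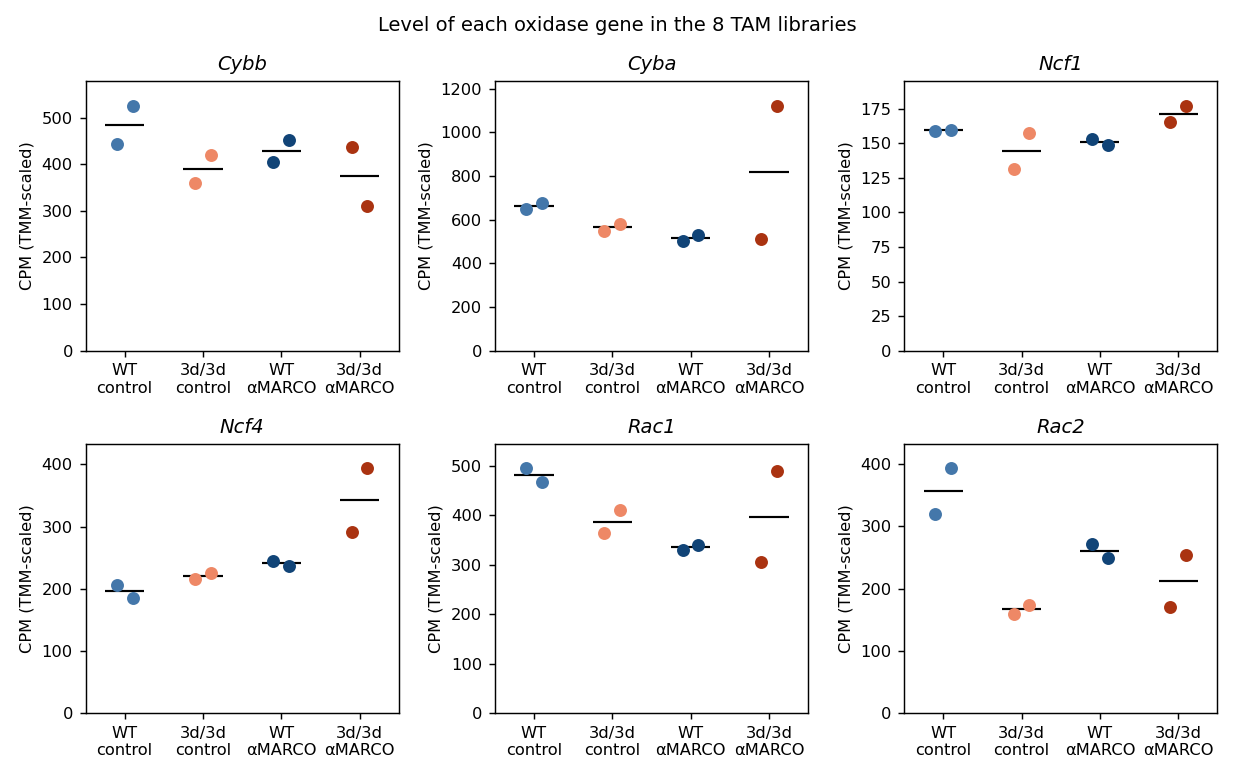
Level of each oxidase gene in CPM (y axis, linear, from 0) in the 4 groups (x axis); each point is 1 library, with replicate 1 to the left, and the line is the mean of the 2. Rac2 in the WT control libraries (320.0 and 393 CPM) sits above both Unc93b1 3d/3d control libraries (160.0 and 174), and the Unc93b1 3d/3d αMARCO libraries lie far apart for Cyba (513 and 1122).

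Comparing the controls asks how the oxidase genes stood without αMARCO when endosomal TLRs do not signal. Of the 6 genes, 1 was called, Rac2, against 13.0% of the 15600 genes tested (6.58% higher and 6.40% lower in WT). That same gene was the only one to pass the adjusted p alone, against 18.8% of genes. All 6 had control groups that did not overlap, 5 higher and Ncf4 lower in WT, against 63.1% of all genes. The median log2 difference of the 6 was 0.26, WT over Unc93b1 3d/3d, beside 0 over all genes.

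Comparing αMARCO with control in WT mice asks what the antibody changed where endosomal TLRs are intact. Rac1 was called, 1 of 6, against 20.7% of the 15630 genes tested (8.91% higher and 11.8% lower). By the adjusted p alone 4 of 6 passed, Cyba, Rac1 and Rac2 lower and Ncf4 higher, against 35.1% of genes. Groups did not overlap for 5 of the 6, against 70.9% of genes, with Cybb the exception. The median log2 change of the 6 was -0.26, beside -0.01 over all genes. This comparison and the one between the control groups share the 2 WT control libraries, and their values are not independent.

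Where the mice were Unc93b1 3d/3d, αMARCO against control gave 0 of 6 called, as for 0% of the 15428 genes tested by edgeR. At an unadjusted p under 0.05 stood 744 genes (4.82%), Ncf4 among them, while DESeq2 called 60 genes and none of the 6. Ncf1 and Ncf4 did not overlap between the groups, 2 of 6 against 38.9% of genes. Between WT and Unc93b1 3d/3d mice under αMARCO again 0 of 6 were called, with 0% of 15722 genes called, 1076 (6.84%) at an unadjusted p under 0.05, and 214 called by DESeq2 with no oxidase gene among them. Ncf1 and Ncf4 did not overlap there either, against 44.4% of genes. For the difference of the αMARCO effects between genotypes 0 of 6 and 0% of 16620 genes were called, 2549 genes (15.3%) had an unadjusted p under 0.05, Rac2 among them, and DESeq2 called 211 genes and none of the 6.

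**Figure D2:**
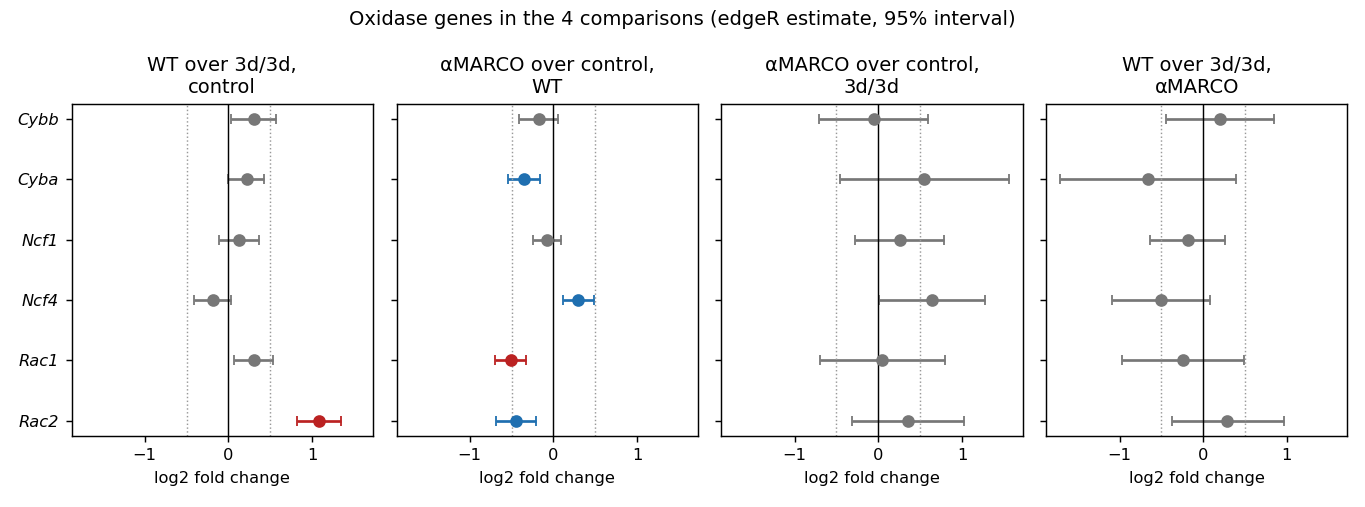
Log2 fold change of each oxidase gene (x axis) with its 95% interval from edgeR in the 4 comparisons, each fitted on its own 4 libraries; dotted lines mark 0.5 in either direction. Red points were called, blue points passed the adjusted p only and grey points neither: Rac2 stands at 1.08 between the control groups and Rac1 at -0.51 in WT after αMARCO, and the intervals of both panels with Unc93b1 3d/3d αMARCO libraries are wide.

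Cybb encodes gp91phox, which carries the heme groups and the FAD and NADPH sites and so the whole electron path. Among controls it stood at 443 and 526 CPM in WT TAMs against 359.8 and 419 in Unc93b1 3d/3d TAMs, and under αMARCO at 404 and 453 against 438 and 310.3. WT control libraries were the higher of the control pair without overlap, and the other comparisons overlapped. WT over Unc93b1 3d/3d among controls gave a log2 fold change of 0.30 ± 0.12 (SE, 95% interval 0.03 to 0.57, edgeR adjusted p = 0.108). The αMARCO effect was -0.17 in WT (interval -0.41 to 0.06, edgeR adjusted p = 0.232) and -0.05 in Unc93b1 3d/3d mice (interval -0.71 to 0.60), and the latter interval reaches past the fold threshold both ways. In that genotype 90.6% of genes had a larger estimate than Cybb.

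Cyba encodes p22phox, the partner that stabilises gp91phox and docks p47phox. Control TAMs had 647 and 678 CPM when WT and 548 and 582 when Unc93b1 3d/3d, and αMARCO TAMs 503 and 530.2 when WT and 513 and 1122 when Unc93b1 3d/3d. The last library is the highest value of any oxidase gene in the series, 2.19 times its own replicate, and the other 7 libraries lay within 503 and 678. In WT mice Cyba was lower after αMARCO by a log2 fold change of -0.35 ± 0.09 (interval -0.54 to -0.16, edgeR adjusted p = 0.0112), below the fold threshold, and with correction for gene length and GC it was -0.16 (adjusted p = 0.189). Between the control groups it differed by 0.22 (adjusted p = 0.152). The estimate of 0.55 in Unc93b1 3d/3d mice had an interval of -0.46 to 1.56.

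Ncf1 encodes p47phox, the organiser subunit whose phosphorylation starts assembly. It was the steadiest of the 6, at 159 and 160.0 CPM in WT controls, 153 and 149 after αMARCO in WT, 132 and 158 in Unc93b1 3d/3d controls, and 166 and 177 after αMARCO in that genotype. Its lowest and highest libraries differ less than those of any other oxidase gene. No comparison passed. The αMARCO estimate was 0.26 in Unc93b1 3d/3d mice (interval -0.28 to 0.79), and the difference of the effects was -0.33 (interval -0.80 to 0.14). The αMARCO effect in WT was -0.07 (interval -0.24 to 0.09, edgeR adjusted p = 0.479), an interval that lies inside the fold threshold.

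Ncf4 encodes p40phox, which binds the phagosome lipid phosphatidylinositol 3-phosphate. WT TAMs went from 207 and 186 CPM without αMARCO to 245 and 237 with it, and Unc93b1 3d/3d TAMs from 217 and 226 to 291 and 394. All 4 αMARCO libraries were above all 4 control libraries, 1 of the 6 genes with that pattern against 5.23% of 16620 genes. The αMARCO log2 fold change was 0.30 ± 0.08 in WT (interval 0.12 to 0.49, edgeR adjusted p = 0.0189), below the fold threshold, and 0.64 ± 0.26 in Unc93b1 3d/3d mice (interval 0.01 to 1.27, adjusted p = 0.823). The difference of the 2 effects was -0.34 (interval -0.91 to 0.24, edgeR adjusted p = 0.476), an interval that reaches past the fold threshold. Among controls Ncf4 was -0.19 in WT over Unc93b1 3d/3d (adjusted p = 0.207).

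Rac1 and Rac2 are the paralogous GTPases that switch the assembled oxidase on, Rac1 in most cell types and Rac2 in cells of blood origin. Their reads could be confused only over stretches they share. The coding sequences of both (GENCODE M21, GRCm38) have 576 bases, of which 444 (77.1%) are identical, and the longest identical run is 29 bases, the first 29 from the start codon. The last 75 bases before the stop codon, positions 502 to 576 of the coding sequence, hold 32 differing bases and are shown because they encode the variable tail by which the proteins differ; capitals mark the bases that differ.
Rac1: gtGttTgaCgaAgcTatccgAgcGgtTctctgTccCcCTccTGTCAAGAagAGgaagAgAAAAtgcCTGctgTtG
Rac2: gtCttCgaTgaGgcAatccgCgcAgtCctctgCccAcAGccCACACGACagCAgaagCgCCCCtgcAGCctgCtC

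Rac2 had 320.0 and 393 CPM in the WT controls and 160.0 and 174 in the Unc93b1 3d/3d controls, and after αMARCO 271 and 248 in WT and 170.5 and 254 in Unc93b1 3d/3d TAMs. WT control was above every other library, both WT groups were above Unc93b1 3d/3d control, and the 2 αMARCO groups overlapped. The control groups differed by a log2 fold change of 1.08 ± 0.12 (interval 0.82 to 1.34, edgeR adjusted p = 0.000535), and 11% of genes had a larger difference. Every alternative kept this call, with estimates of 0.94 to 1.23. In WT mice Rac2 was lower after αMARCO by -0.45 ± 0.11 (interval -0.69 to -0.21, edgeR adjusted p = 0.0107), just short of the fold threshold, which it passed without WT control replicate 1 (-0.60) and without WT αMARCO replicate 1 (-0.51). The αMARCO estimate in Unc93b1 3d/3d mice was 0.36 (interval -0.31 to 1.03). The difference of the 2 effects was -0.80 (interval -1.49 to -0.12, edgeR adjusted p = 0.318), which is not a call.

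T cells, NK cells and B cells also express Rac2, and their markers were counted beside it. Of 6 T cell markers, 5 were called higher in WT control than in Unc93b1 3d/3d control (Cd3d, Cd3e, Cd3g, Trac and Cd8a) and Cd4 lower. The sums, 73.9 to 88.0 against 66.4 to 71.2 CPM, hide this, because Cd4 alone gave 61.7 and 62.3 CPM in Unc93b1 3d/3d control. Mean Cd3g was 13.0 CPM in WT control against 1.27, and mean Cd8a 18.0 against 0.838, while mean Cd4 was 20.4 against 62.0. In WT mice all 6 fell after αMARCO, to a sum of 9.43 to 17.6 CPM. The 7 dendritic cell markers summed to 178 to 338 CPM in WT control and to 26.8 to 55.3 CPM in the other 3 groups, and Ccr7 made up most of the WT control sum. The 4 B cell markers summed to 38.4 to 42.4 CPM in WT control and 3.61 to 4.78 in Unc93b1 3d/3d control, the 4 NK cell markers to 20.9 to 27.2 against 3.56 to 10.6, and the 5 nonclassical monocyte markers to 1272 to 1306 against 350.0 to 473. Of those 5, Cd300e (log2 6.05) and Spn (2.82) were called higher in WT control. Treml4 (2.56), Nr4a1 (0.54) and Ace (-0.10) were not called, and Nr4a1 made up most of the Unc93b1 3d/3d control sums. The part of any of these cell types in the Rac2 result was not tested. In WT αMARCO the nonclassical monocyte markers summed to 1079 to 1225, the B cell markers to 17.8 to 19.3, the NK cell markers to 1.65 to 6.76 and the dendritic cell markers to 26.8 to 35.7 CPM. The nonclassical monocyte sum hides opposite calls after αMARCO in WT. Spn (-1.37) and Cd300e (-1.16) were called lower, Nr4a1 (0.61) was called higher, and the other 2 were not called. In bulk samples, fewer cells of a type and less RNA per cell cannot be told apart.

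Rac1 had 495 and 467 CPM in the WT controls, 331 and 339.8 after αMARCO in WT, 364 and 410.2 in the Unc93b1 3d/3d controls, and 306 and 489 after αMARCO in that genotype. Both WT control libraries were above all libraries of the other groups but Unc93b1 3d/3d αMARCO replicate 2. In WT mice Rac1 fell by 0.51 on the log2 scale after αMARCO (SE 0.08, interval -0.70 to -0.33, edgeR adjusted p = 0.00155). This value sits on the fold threshold: the call was lost at -0.50 with DESeq2, DESeq2 size factors or a minimum of 10 counts, at -0.48 without WT control replicate 1 or WT αMARCO replicate 1, and at -0.52 with all 8 libraries in 1 model (adjusted p = 0.243). Between the control groups Rac1 was 0.30 ± 0.10 in WT over Unc93b1 3d/3d (interval 0.07 to 0.53, edgeR adjusted p = 0.0675). The ratio of Rac2 to Rac1 per kb was 0.937 and 1.22 in WT control and 1.19 and 1.06 in WT αMARCO. In Unc93b1 3d/3d TAMs it was 0.637 and 0.614 in control and 0.808 and 0.753 in αMARCO, so all 4 WT libraries were above all 4 Unc93b1 3d/3d libraries. How often the ratios of other gene pairs show that pattern was not counted.

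What αMARCO did in Unc93b1 3d/3d mice depended on which αMARCO library was used. With replicate 2 alone against the controls, Cyba (1.01, edgeR adjusted p = 1.39e-06), Ncf4 (0.85, adjusted p = 7.08e-06) and Rac2 (0.62, adjusted p = 0.000433) were called, among 5500 genes in all. With replicate 1 alone none of the 6 was called, among 571 genes, and Cyba stood at -0.14, Rac1 at -0.34, Rac2 at 0.03 and Ncf4 at 0.40. Ncf4 was positive with either library, as was Ncf1 at 0.20 to 0.31. A lone library was assumed to vary as the other group does.

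The same library decided the comparison of genotypes under αMARCO. With replicate 2 alone, Cyba (-1.12), Ncf4 (-0.70) and Rac1 (-0.54) were called lower in WT, among 6366 genes. With replicate 1 alone Rac2 was called higher in WT at 0.61 (edgeR adjusted p = 0.000184), among 1252 genes, and Cyba stood at 0.01. Across the 6 genes the ratio of replicate 2 to replicate 1 was 2.19 for Cyba, 1.60 for Rac1, 1.49 for Rac2, 1.35 for Ncf4, 1.07 for Ncf1 and 0.709 for Cybb. The shortest gene stood at one end and the longest at the other. Those between did not follow length (Rac1 4496 bases, Rac2 3103, Ncf4 2020 and Ncf1 3663), and the cause was not tested. After correction for length and GC the Cyba estimate in Unc93b1 3d/3d mice was 0.29 instead of 0.55, while Ncf4 was 0.50 instead of 0.64, Rac2 0.31 instead of 0.36, Ncf1 0.25 instead of 0.26, Rac1 0.11 instead of 0.05 and Cybb -0.03 instead of -0.05.

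**Figure D3:**
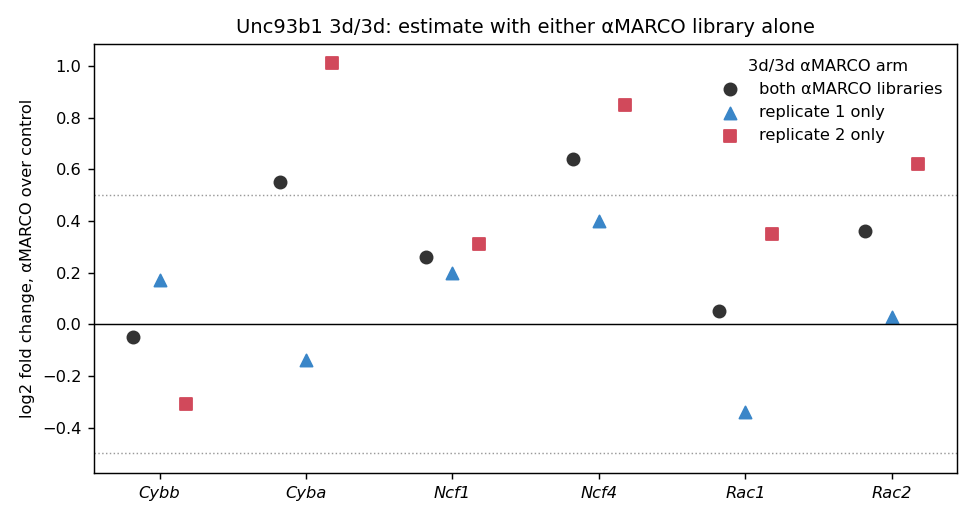
Log2 fold change of αMARCO over control in Unc93b1 3d/3d TAMs (y axis) for each oxidase gene, with both αMARCO libraries (circles), replicate 1 alone (triangles) or replicate 2 alone (squares); dotted lines mark 0.5. For Cyba the estimate runs from -0.14 to 1.01 and for Ncf4 from 0.40 to 0.85 with the library used.

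The genes around the oxidase were counted in 5 lists. Of 9 other NOX and DUOX family genes, which make superoxide or hydrogen peroxide in other tissues, 6 were in the tables, and 5 of those had at most 4 counts in any library. Noxo1, an organiser of NOX1, had 4 to 27 counts and was not called in any comparison. Cybb was thus the one catalytic subunit of those looked for that was measured above a few counts. Its chaperone gene, named BC017643 in the tables and now Cybc1, showed a log2 difference of 0.04 between control groups (adjusted p = 0.80) and 0.19 after αMARCO in WT (adjusted p = 0.0846).

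In the control comparison, 5 of 23 assembly and activation genes were called, 4 higher in WT and 1 lower, against 13.0% of all genes (6.58% higher and 6.40% lower). Hvcn1, the proton channel that balances the charge the oxidase moves, was 1.94-fold higher in WT (log2 0.96, edgeR adjusted p = 0.0247). The integrin chains Itgb2 (0.71) and Itgam (0.63), which form the complement receptor CR3, and the Rac exchange factor Vav2 (0.55) were higher too. The 1 lower gene, named after its value was seen, was Vav3 of the same family (-0.52).

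Enzymes that supply NADPH and enzymes that remove its products were counted separately. Of 7 NADPH supply genes 3 were called, all higher in WT control against 6.58% of all genes higher, led by G6pdx (0.62), the entry enzyme of the pentose phosphate pathway, with Tkt (0.53) and Taldo1 (0.52) of its later steps. Of 15 genes for superoxide and peroxide removal 6 were called, all higher, the largest being Sod1 (0.93), the cytosolic superoxide dismutase, Sod2 (0.64), its mitochondrial form, the peroxiredoxin Prdx2 (0.60) and thioredoxin, Txn1 (0.60). Sod1 had 154 and 168 CPM in WT control and 84.2 and 83.3 in Unc93b1 3d/3d control. The list medians were 0.29 for supply and 0.34 for removal, beside 0 over all genes.

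After αMARCO in WT mice the same 15 removal genes had 6 called, all lower, against 11.8% of all genes lower: Prdx4 (-0.96), Sod1 (-0.94), Gpx1 (-0.92), the main cytosolic glutathione peroxidase, and Prdx2 (-0.63) by size, then 2 smaller changes. Gpx1 had 554 and 556 CPM in WT control and 271 and 313 in WT αMARCO. NADPH supply had 2 of 7 called, Taldo1 (-0.62) and Pgls (-0.53), both lower. Assembly had 2 of 23, a share under that of all genes, Hvcn1 (-0.79) and Arhgdib (-0.60), a GDP dissociation inhibitor that holds Rac in the cytosol, both lower. The removal list's median was -0.46, beside -0.01 over all genes. The WT control libraries stand in this comparison and in the one before it, so one set of WT control values enters both.

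Nfkb1 kept its call between the controls in 11 of 11 alternatives, with log2 differences of 0.63 to 0.98. The other list calls were less firm than the call of Rac2. With all 8 libraries in 1 model only Nfkb1 among the genes of these lists kept its call in either comparison, while 164 and 364 genes in all were called for WT αMARCO and for the controls. With correction for length and GC, 4 removal genes instead of 6 were called after αMARCO and 3 instead of 6 between the controls. Without Unc93b1 3d/3d control replicate 1 the controls gave 3 removal genes and 1 supply gene, and without WT αMARCO replicate 1 the antibody gave 1 supply gene in WT. In both comparisons with Unc93b1 3d/3d αMARCO libraries and in the difference of effects, 0 genes of any of these lists were called. Leaving out Unc93b1 3d/3d αMARCO replicate 1 raised the calls in the removal, assembly, supply and promoter-binding lists. It raised the calls over all genes too, so that rise is not particular to these lists. Without replicate 2 of that group no list had more than 4.

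**Figure D4:**
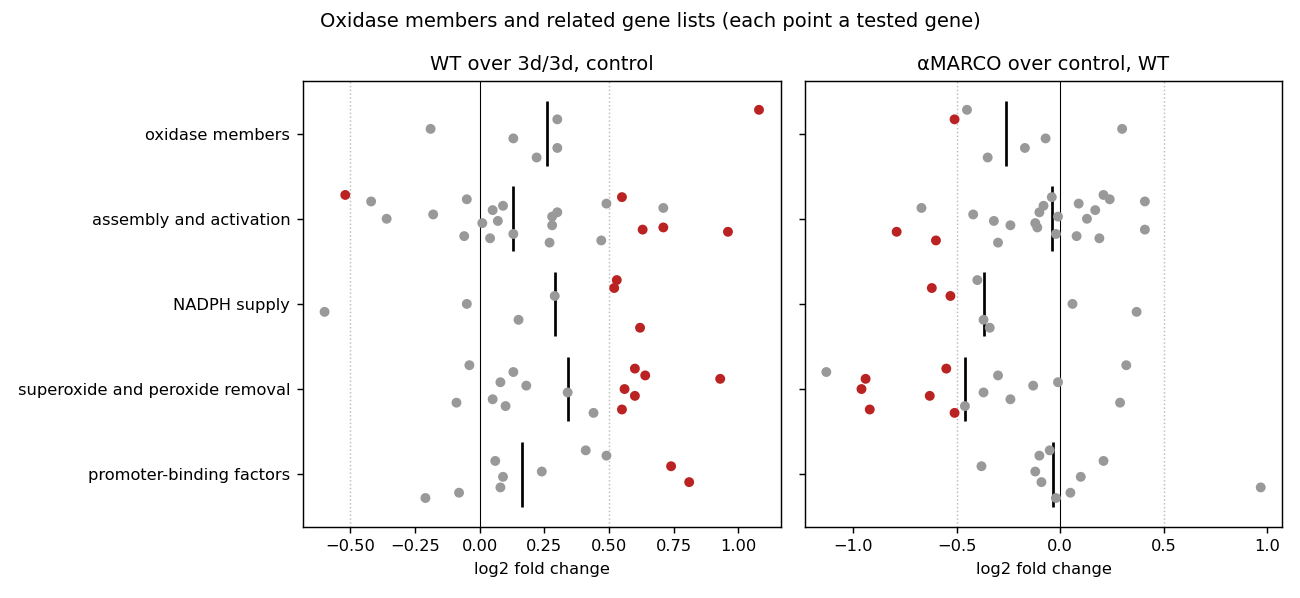
Log2 fold change (x axis) of the oxidase genes and of 4 related lists (rows) in the 2 comparisons with calls; each point is a tested gene, red when called, the black bar is the row's median and dotted lines mark 0.5. Called genes for superoxide and peroxide removal lie between 0.55 and 0.93 in WT over Unc93b1 3d/3d controls and between -0.96 and -0.51 after αMARCO in WT.

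Transcription factors known to bind oxidase gene promoters were the last list. Of 10, Irf1 (0.81) and Nfkb1 (0.74) were called higher in WT control than in Unc93b1 3d/3d control, against 13.0% of all genes called and 6.58% higher. After αMARCO in WT 0 were called, against 20.7% of all genes. Irf1, an interferon-induced factor, had 313 and 406 CPM in the WT controls and 346 and 328 after αMARCO in WT, against 180.5 and 226, then 172 and 248, in Unc93b1 3d/3d TAMs. All WT libraries were above all Unc93b1 3d/3d libraries for Irf1, and the share of all genes with that pattern was not counted. Cybb, on which IRF factors with PU.1 are known to act, was not called between the control groups. Spi1, the gene of PU.1, was higher in WT control by 0.49 (edgeR adjusted p = 0.0116), just short of the fold threshold. The RefSeq promoter table (GRCm38.p6, 300 bases per gene, 250 before the start and 50 after) held Cybb, Cyba and Ncf1, 3 of the 6. The Cybb window, chrX:9469275-9469574, lies inside the gene span given above, so its start is not the outer end of that span. The composite ETS and IRF element, GGAA then any 2 bases then GAAA, searched on both strands and chosen after the Cybb window had been read, occurred once in Cybb at bases 4 to 13 after the start, on the opposite strand, and not in the windows of Cyba and Ncf1. Of 32851 promoters, 892 (2.72%) held it. The 30 bases at chrX:9469302-9469331, minus strand, are shown with the match in capitals because it is the one element searched.
Cybb: aagctgctgtTTTCATTTCCtcatcagaag

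Finally, the genes whose log2 CPM followed each oxidase gene most closely over the 8 libraries were read out as a description, among 16572 genes that share the same libraries and their depth. Rac2 was most like BC064078 (Pearson r = 0.994), Batf3 (0.991), a dendritic cell and activated lymphocyte factor that ran from 11.9 to 65.2 CPM, and Slamf9 (0.989), which ran from 87.0 to 384 CPM. Ncf4 was most like Gm13373 (0.990), Card9 (0.989), the adaptor of fungal receptor signaling, and Naa10 (0.989). Cyba was most like Sin3b (0.998) and Ndufb7 (0.997) and Atp5l (0.994), short genes of mitochondrial proteins. Cyba lay within 503 and 678 CPM in 7 libraries and at 1122 in Unc93b1 3d/3d αMARCO replicate 2. That 1 library therefore weighs heavily in the r values of Cyba. Rac1 was most like Arf1 (0.992), another small GTPase, with Gng5 and Tfg (both 0.991). The 15 pairs of oxidase genes ran from -0.74 for Cybb with Ncf4 to 0.77 for Cyba with Rac1 over the 8 libraries, and from -0.86 for Ncf4 with Rac1 to 0.96 for Cyba with Rac1 over the 7 without Unc93b1 3d/3d αMARCO replicate 2. Cybb and Cyba, the subunits of the flavocytochrome, stood at -0.51 over 8 and 0.59 over 7, so that library turned the sign.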

How the data were processed

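TAM RNA from 8 libraries was sequenced after poly(A) selection, and the labels name no strand setting. Per the labels, the authors used fastp, HISAT2 2.0.5 on GRCm38 and featureCounts 1.5.0 and deposited raw gene counts in 3 tables of DESeq2 1.40.2 comparisons, with gene lengths in bases. The normalized count, FPKM, fold change and p-value columns of those tables were not used. The tables were joined by gene identifier (26939 genes, 95230 shared counts, 0 differing), and a gene missing from a table was taken as 0 in its libraries. Library totals were 15182618 to 26411936 counts, and TMM-scaled CPM over all 8 libraries gave the levels.

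Each comparison was fitted on its own 4 libraries with edgeR 4.0.16 (R 4.3.3, TMM, filterByExpr, robust quasi-likelihood), the first named group over the second, with Benjamini-Hochberg adjustment over all tested genes. The difference of the αMARCO effects used all 8. Genes named were the 6 oxidase genes and, from each list, those called, or the 4 largest where more were called, with some uncalled genes as counterparts. The members and lists were chosen with earlier results of these data known. Alternatives were DESeq2 1.42.0, its size factors, other count filters, 1 model of 8 libraries, no fold threshold, each library left out and, added after seeing the data, a length and GC correction. Scripts were tested on simulated data. One Unc93b1 3d/3d control library has another allele name in its genotype field than in its title, and the title was used. One list of related genes and 1 marker are not reported here.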

Additional observations from a re-analysis of the deposited data

How the results depend on the processing

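Of 348 oxidase gene values under an alternative, 320 kept direction and side of the threshold, 13 newly passed it, 6 lost it and 9 changed sign. The count of 1 called oxidase gene between the control groups stood in every alternative. For WT αMARCO against control it was 0 with DESeq2, with its size factors, with at least 10 counts in every library and with all 8 libraries in 1 model, and 4 (Cyba, Ncf4, Rac1 and Rac2) with no fold threshold; with each library left out it was 1, Rac2 in place of Rac1 without WT control replicate 1 or WT αMARCO replicate 1. With each library left out, the count ran from 0 to 3 for αMARCO in Unc93b1 3d/3d mice, 0 to 3 for genotype under αMARCO, where replicate 2 left out gave 1, and 0 to 4 for the difference of effects, where Cyba, Ncf4, Rac1 and Rac2 were called without Unc93b1 3d/3d αMARCO replicate 1. Changes of sign came only with a library left out: for αMARCO in Unc93b1 3d/3d mice Cybb then ran from -0.31 to 0.17, Cyba from -0.14 to 1.01 and Rac1 from -0.34 to 0.35, for genotype under αMARCO Cybb from -0.03 to 0.47, Cyba from -1.12 to 0.01 and Rac1 from -0.54 to 0.13, and for the difference of effects Cybb from -0.36 to 0.15. For 7 of the 9, the library was an Unc93b1 3d/3d αMARCO library, and for the other two an Unc93b1 3d/3d control. The cause was not tested.

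Counts over all genes moved more. With all 8 libraries in 1 model 164 genes were called for WT αMARCO, 1 for αMARCO in Unc93b1 3d/3d mice, 108 for genotype under αMARCO and 364 between controls. With no fold threshold 5487 were called for WT αMARCO. DESeq2 called 60 for αMARCO in Unc93b1 3d/3d mice, 214 for genotype under αMARCO and 211 for the difference of effects. Keeping genes with at least 1 count gave 174, 107 and 152, and the length and GC correction 1, 15 and 5 in the same order. With each library left out the counts ran from 1940 to 3951 for WT αMARCO, 1 to 5500 for αMARCO in Unc93b1 3d/3d mice, 17 to 6366 for genotype under αMARCO, 1493 to 2232 between controls and 0 to 6440 for the difference of effects.

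Replicate numbers did not pair the samples, since the correlations of replicate differences between groups ran from -0.078 to 0.135. With the replicate block 3086 genes were called for WT αMARCO, 5 for αMARCO in Unc93b1 3d/3d mice, 97 for genotype under αMARCO, 2395 between controls and 0 for the difference of effects, and oxidase genes were 1, 0, 0, 1 and 0. Each group had 2 libraries, and the oxidase genes 2093 or more counts in each.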
